A study of Mus musculus with 10 samples.

Results

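The metalloproteinases of the MMP, ADAM and ADAMTS families, the ADAMTS-like (ADAMTSL) genes and the TIMP inhibitors were read in RNA-seq gene counts of mouse esophageal squamous cell carcinoma lines. Members were all genes whose name in the count table is a family prefix followed by its number. The rule found 31 of 12806 genes: 11 MMP, 8 ADAM, 6 ADAMTS, 3 ADAMTSL and 3 TIMP genes. The 25 MMP, ADAM and ADAMTS genes are called proteases here by family name only. The mouse annotation (GENCODE, GRCm38) lists 84 protein-coding genes of these families. The count table held no row under the names of the others, so their levels are not known here.

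All 10 lines carry Trp53R172H/-, a mutant Trp53 allele over a null one, on a mixed strain background, and each holds a control hairpin (shCtrl) or a hairpin against Trp53 (shTrp53). The primary cells gave 1 line per hairpin. The remaining 8 were cultured from digested lungs with metastases at week 8 and selected for the fluorescent marker YFP by flow sorting: 5 shCtrl (numbers 376, 377, 378, 382 and 383) and 3 shTrp53 (384, 386 and 387). The age and sex of the mice, and whether the lines came from different animals, were not given in the sources used here, so each p-value rests on the spread among these lines, which may be technical.

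MMPs are zinc proteases that are secreted or sit at the cell surface and cut matrix proteins and other secreted proteins. Many ADAMs are membrane proteases that release the outer parts of growth factors, cytokines and adhesion proteins from the cell surface. ADAMTS enzymes are secreted and cut proteoglycans and collagen precursors, and ADAMTSL proteins share their binding domains but have no protease domain. TIMPs are secreted proteins that bind the active site of MMPs, and some of them also block ADAM and ADAMTS enzymes. In carcinomas these genes are studied for their part in invasion and in the shedding of signals.

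Total counts were 11057049 to 18431216 per library. Trp53 was at 73.8 to 131 CPM (read counts scaled by library size) in the 6 shCtrl lines and 5.16 to 7.36 CPM in all 4 shTrp53 lines. All 10 markers of squamous epithelium were measured, with a summed level of 5440 to 12400 CPM per line. Among metastatic lines this sum was 7980 to 11400 CPM with shCtrl and 5440 to 7430 CPM with shTrp53, without overlap (1 marker called higher and 2 lower, median log2 fold change -0.39). Of 10 fibroblast markers 3 were in the table (1.5 to 10.9 CPM summed), of 10 leukocyte markers 2 (Cd68 and Cd14, 83.7 to 146 CPM), of 9 endothelial markers 2 (0.63 to 1.7 CPM) and of 8 lung epithelial markers 1 (Hopx, 1.61 to 7.84 CPM). The leukocyte pair summed to 103 to 140 CPM in the shCtrl and 133 to 146 CPM in the shTrp53 metastatic lines. The part of these marker levels in the results below was not tested.

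The first comparison asked how the families differed between shTrp53 (n = 3) and shCtrl (n = 5) metastatic lines. One protease gene, Adam9, was higher in the shTrp53 lines, and 6 members were lower: the inhibitor Timp1, the proteases Mmp3, Adam17 and Adam8, and the protease-like genes Adamtsl3 and Adamtsl4. Of the 31 members, 27 had enough counts to be tested. The 7 called members (adjusted p under 0.05, edgeR quasi-likelihood test) compare with 21.7% of all 12120 genes tested, of which 10.9% were higher and 10.8% lower. The members' median log2 fold change was -0.42, against -0.01 over all genes tested. In 7 of the 27 tested members (25.9%) the groups did not overlap, against 29.4% of all genes tested. Both shares, taken over both directions together, were near the background. By direction the called members were 1 higher and 6 lower of 27, and whether this split differs from that of all genes was not tested. The highest line numbers belong to the shTrp53 metastatic lines, so the hairpin and line order cannot be told apart, nor can fewer cells of a type and less RNA per cell.

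**Figure D1:**
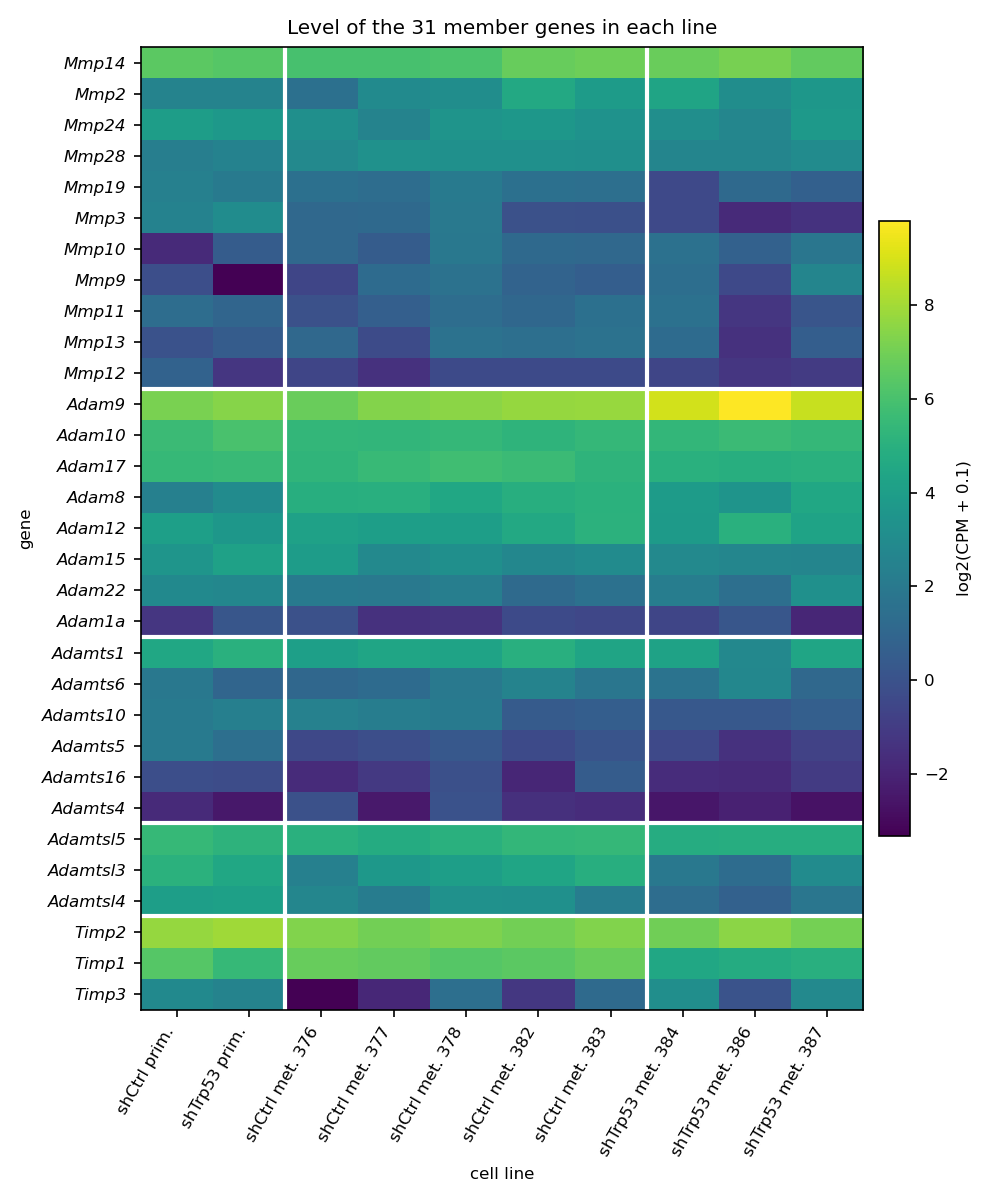
Level of the 31 genes, as log2(CPM + 0.1) on the colour scale, in each of the 10 lines (columns), with white lines between families and between the primary, shCtrl metastatic and shTrp53 metastatic lines. Rows are to be read across lines and not against each other, since CPM is not divided by length; Adam9 is brightest in the 3 shTrp53 metastatic lines, at 413 to 895 CPM.

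Timp1, which encodes a secreted inhibitor of most MMPs, had the smallest adjusted p of the members. Timp1 stood at 107, 99.6, 82.5, 88.9 and 110 CPM in shCtrl metastatic lines 376, 377, 378, 382 and 383. It stood at 22.7, 27 and 31.2 CPM in shTrp53 metastatic lines 384, 386 and 387. All 3 shTrp53 lines lay below all 5 shCtrl lines, with little spread within either group. The group levels were 97.7 ± 11.8 CPM (SD, n = 5) and 27 ± 4.27 CPM (SD, n = 3), a log2 fold change of -1.85 (SE 0.16, adjusted p = 0.000168). Timp1 kept its call in all 18 alternative fits, the 8 with a line removed among them. The shCtrl primary line had 81.2 CPM of Timp1 and the shTrp53 primary line 45.0 CPM (log2 ratio -0.85, exact binomial 95% counting interval -0.998 to -0.707). The primary pair thus had the same direction, in 1 line of each kind and with no replicate check.

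Timp2, which blocks MMPs and also takes part in the activation of pro-MMP2 at the cell surface, did not differ in this way. It ranged from 129 to 160 CPM in the shCtrl and from 124 to 186 CPM in the shTrp53 metastatic lines, and the groups overlapped. The log2 fold change of Timp2 was 0.02 (SE 0.15, adjusted p = 0.930). Timp3, which binds the matrix and inhibits ADAM17 and ADAMTS enzymes, varied most of the 3. Timp3 stood at 0, 0.17, 2.68, 0.34 and 2.22 CPM in the shCtrl lines in order of number and at 8.82, 0.91 and 7.27 CPM in shTrp53 lines 384, 386 and 387. Its log2 fold change of 2.37 (SE 0.96) had an adjusted p of 0.1, and 1 shTrp53 line lay within the shCtrl range. The log2 fold change of Timp3 was 3.02 without shCtrl line 378, and limma voom called it higher (3.33, adjusted p = 0.046). The 0 counts of line 376 allow up to 0.21 CPM (3 counts). Exons of Timp3 overlap exons of Syn3 on the other strand, and the strand setting of the counts was not given in the sources used here. Syn3 was at 0.92 and 0.72 CPM in the 2 groups.

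**Figure D2:**
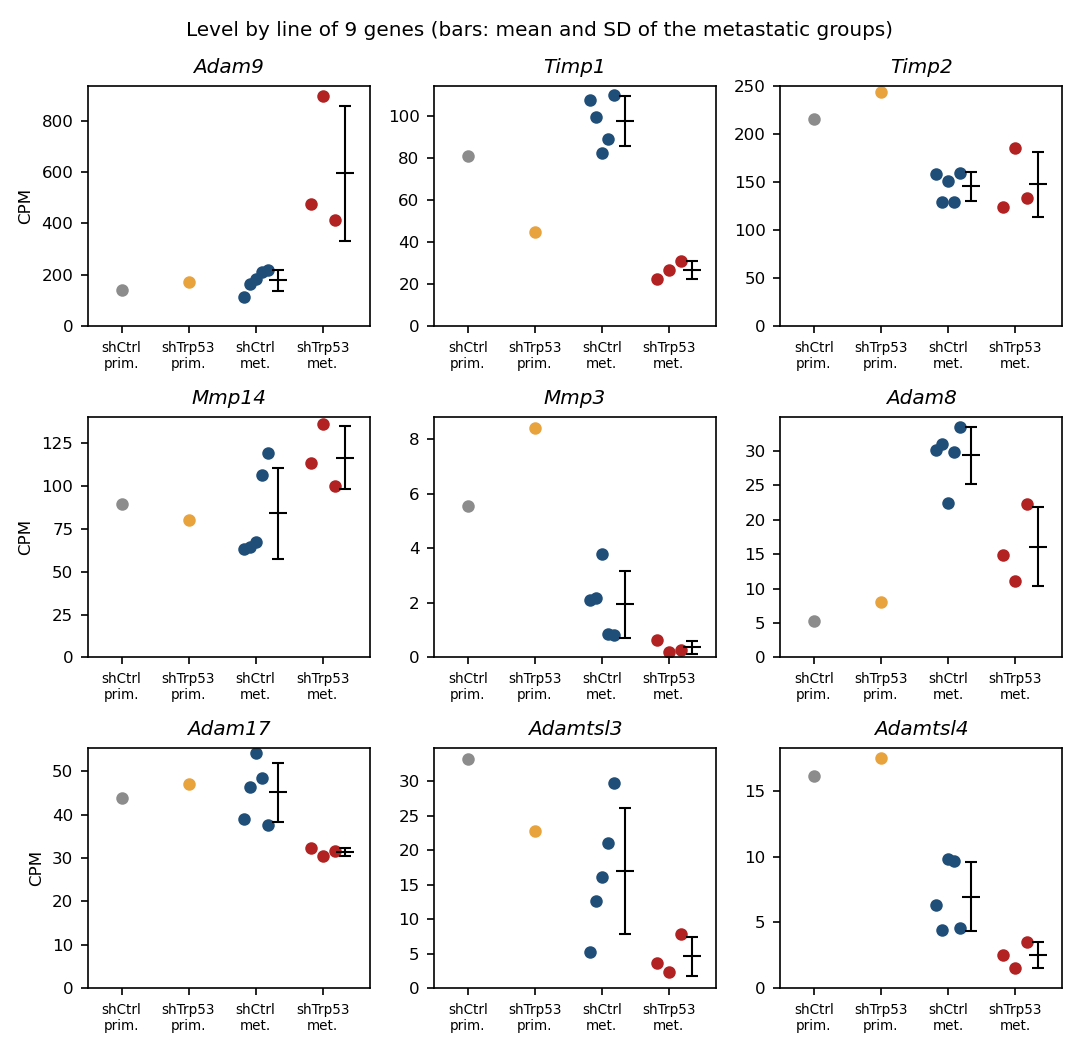
CPM in each line (1 point each) for 9 genes in the 4 groups, each axis starting at 0, with the mean and SD of the metastatic groups beside the points. Adam9 (413 to 895 against 114 to 218 CPM) and Timp1 (22.7 to 31.2 against 82.5 to 110 CPM) separate the metastatic groups with a gap, while Timp2 and Mmp14 overlap.

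Among the MMPs, Mmp14 was the most abundant, at 29.0 CPM per kb of transcript on average over 10 lines, ahead of Mmp2 at 3.59. Mmp14 encodes a membrane-type MMP that cuts collagen and activates pro-MMP2. Its level was 63.4, 64.3 and 67.2 CPM in shCtrl lines 376, 377 and 378, 106 and 119 CPM in lines 382 and 383, and 113, 136 and 100 CPM in shTrp53 lines 384, 386 and 387. Lines 382 and 383 thus lay in the range of the shTrp53 lines and 376 to 378 below it. The log2 fold change of Mmp14 was 0.48 (SE 0.23, adjusted p = 0.158). Without shCtrl line 383 it was 0.64 with an adjusted p of 0.0381, and once line numbers 376 to 378 had their own term it was 0.05 with an adjusted p of 0.865. Lines 376 to 378 are all shCtrl lines. With this term the hairpin difference of any gene thus rests on shCtrl lines 382 and 383 against the shTrp53 lines.

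Mmp3, or stromelysin 1, which cuts many matrix proteins and other pro-MMPs, was the 1 MMP called. It was at 2.10, 2.17, 3.79, 0.84 and 0.81 CPM in the shCtrl metastatic lines in order of number and at 0.65, 0.20 and 0.28 CPM in the shTrp53 lines. The shTrp53 levels rest on only 9, 3 and 5 counts in lines 384, 386 and 387. The groups did not overlap, but shCtrl lines 382 and 383 lay close to shTrp53 line 384. The log2 fold change of Mmp3 was -2.38 (SE 0.65, adjusted p = 0.0269). The call was lost without line 377, 378, 386 or 387 (adjusted p = 0.057, 0.0565, 0.0978 and 0.0875), the log2 fold change was -2.98 without 384, and once line numbers 376 to 378 had a term of their own it was -1.16 (adjusted p = 0.255). In the primary pair Mmp3 was higher with shTrp53, at 8.40 against 5.57 CPM.

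The other named MMPs passed no test here. Mmp2, a gelatinase, ranged from 2.73 to 24.1 CPM in the shCtrl and from 8.66 to 20.2 CPM in the shTrp53 metastatic lines. Mmp24, a membrane-type MMP, was at 9.66 ± 2.40 and 9.72 ± 3.74 CPM (SD, n = 5 and 3), and its exons overlap those of BC029722 on the other strand. Mmp28, or epilysin, known from keratinocytes, was at 9.13 ± 1.10 and 6.80 ± 1.03 CPM (log2 fold change -0.42, SE 0.20, adjusted p = 0.153). Over the 10 tested MMPs the median log2 fold change was -0.20, with 5 below 0.

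Mmp3, Mmp10, Mmp12 and Mmp13 belong to the MMP gene cluster on chromosome 9, a known target of AP-1 factors. Promoter windows of 250 bases before the start (RefSeq, GRCm38.p6) were found for 21 of the 31 members, in 22 windows. The AP-1 motif TGAGTCA, searched on both strands, was in 4 of these windows, those of Mmp3, Mmp10, Mmp12 and Mmp13, and in 4.46% of all 32851 windows of that length. The motif TATAAA was in the windows of Mmp3, Mmp10, Mmp13 and Adamts1, and in 12.37% of all windows. The GC box GGGCGG was in 15 of the 22 windows, Timp1, Timp2, Timp3 and Mmp14 among them, and in 32.74% of all windows. The last 150 bases before the start are shown for the cluster genes with both AP-1 and TATA motifs and for the abundant inhibitors, 5′ to 3′ on the gene's strand, with these 3 motifs in capitals; in Mmp13 the AP-1 motif and in Timp1 the GC box read as their reverse complement.
Mmp3, chr9:7445672-7445821, plus strand: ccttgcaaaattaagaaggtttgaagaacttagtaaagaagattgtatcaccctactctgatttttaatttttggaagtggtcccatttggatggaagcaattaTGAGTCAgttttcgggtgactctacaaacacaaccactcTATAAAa
Mmp10, chr9:7502192-7502341, plus strand: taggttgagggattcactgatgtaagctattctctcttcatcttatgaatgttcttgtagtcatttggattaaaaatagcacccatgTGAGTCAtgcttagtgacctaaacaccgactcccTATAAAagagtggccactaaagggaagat
Mmp13, chr9:7272364-7272513, plus strand: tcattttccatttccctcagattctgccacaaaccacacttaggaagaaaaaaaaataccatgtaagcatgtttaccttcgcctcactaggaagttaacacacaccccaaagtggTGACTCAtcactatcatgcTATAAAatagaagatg
Timp1, chrX:20870016-20870165, plus strand: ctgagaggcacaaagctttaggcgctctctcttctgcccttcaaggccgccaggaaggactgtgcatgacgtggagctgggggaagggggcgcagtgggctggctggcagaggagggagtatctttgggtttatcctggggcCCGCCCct
Timp2, chr11:118355412-118355561, minus strand: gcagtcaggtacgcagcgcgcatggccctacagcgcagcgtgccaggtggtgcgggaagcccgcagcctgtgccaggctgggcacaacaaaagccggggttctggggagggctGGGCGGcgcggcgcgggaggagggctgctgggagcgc
The AP-1 motif starts 46 bases before the start in Mmp3, 63 in Mmp10 and 35 in Mmp13. In the metastatic lines the log2 fold changes of the 3 tested cluster genes with this motif were -2.38 for Mmp3, 0.23 (SE 0.38, adjusted p = 0.698) for Mmp10 and -0.78 (SE 0.61, adjusted p = 0.371) for Mmp13. Mmp12 had too few counts to be tested, and differences between the genes were not tested.

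Adam9 was the member that rose. It encodes a membrane sheddase studied in carcinomas and their metastases. Adam9 stood at 114, 165, 184, 210 and 218 CPM in shCtrl metastatic lines 376, 377, 378, 382 and 383 and at 476, 895 and 413 CPM in shTrp53 lines 384, 386 and 387. Every shTrp53 metastatic line lay above every shCtrl line, and line 386 was the highest by a wide gap. The group levels were 178 ± 41.8 and 595 ± 262 CPM (SD, n = 5 and 3), a log2 fold change of 1.74 (SE 0.27, adjusted p = 0.00309). Its log2 fold change was 1.33 without line 386 and 1.95 without line 387, and Adam9 kept its call in all 18 alternative fits. The primary lines had 142 CPM (shCtrl) and 174 CPM (shTrp53) of Adam9, a log2 ratio of 0.30 (counting interval 0.21 to 0.38).

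On one side of Adam9, 4 of the 10 nearest measured genes were also higher, and on the other side 0 of 10 were called by the edgeR test. Tm2d2, the next gene in the reference order, rose from 168 to 475 CPM (1.51 on the log2 scale, SE 0.18, adjusted p = 0.00105). Plekha2, the gene after it, rose from 1.9 to 20.5 CPM (3.43, SE 0.45, adjusted p = 0.00165), and Fgfr1, a fibroblast growth factor receptor, from 2.27 to 8.02 CPM (1.82, SE 0.40, adjusted p = 0.0123). Gm17484 rose by less (log2 fold change 0.50, adjusted p = 0.0367), and its call was lost on removing any of 7 lines, with adjusted p of 0.0552 without line 376, 0.0573 without 377, 0.0648 without 378, 0.0675 without 382, 0.0915 without 384, 0.127 without 386 and 0.0646 without 387. Of the 20 tested neighbours, 10 on each side, 4 rose and 0 fell by the edgeR test, with a median log2 fold change of 0.27, where 10.9% of all genes tested were higher and 10.8% lower. Such runs were not particular to Adam9: of 19 tested neighbours, 9 rose and 0 fell around Adamts16 (median 0.47), and 5 rose and 0 fell around Adamts6 (median 0.36). Tacc1, which lies between Plekha2 and Fgfr1, went the other way without passing (log2 fold change -0.76, adjusted p = 0.103). Genes of chromosome 8, where Adam9 and Mmp2 lie, had a median log2 fold change 0.31 above that of all genes. For chromosome 13, where Adamts6 and Adamts16 lie, this was 0.33, and for chromosome 10, which holds 4 members, Timp3 and Mmp19 among them, it was -0.22. The part of these shifts in the levels of the members was not tested.

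**Figure D3:**
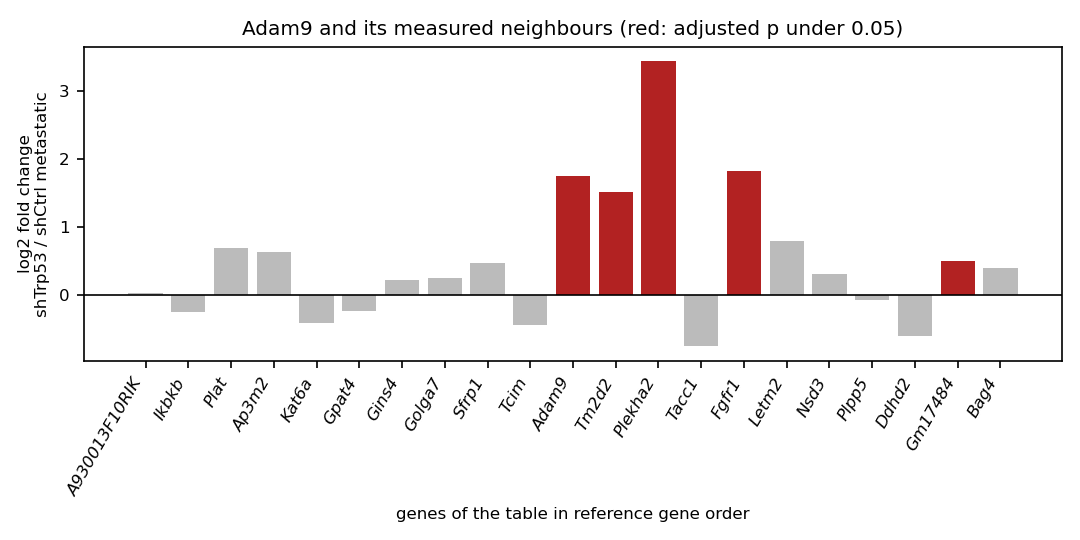
Log2 fold change between shTrp53 and shCtrl metastatic lines (bars) of Adam9 and the 10 measured genes on each side in reference gene order, red where the adjusted p was under 0.05. Adam9, Tm2d2, Plekha2 and Fgfr1 stand above 1.5, and no neighbour was called lower.

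Of the 7 tested ADAM genes, Adam9 was the only one called higher by the edgeR test, and 3 had a log2 fold change below 0. Adam17, the protease that releases TNF and several EGF receptor ligands, was at 38.9, 46.3, 54.2, 48.5 and 37.7 CPM in the shCtrl and at 32.2, 30.5 and 31.6 CPM in the shTrp53 metastatic lines. The groups did not overlap, and the shTrp53 lines lay within 2 CPM of each other. Adam17 fell, with a log2 fold change of -0.52 (SE 0.15, adjusted p = 0.0332). The call was lost without line 377, 378, 382, 384, 386 or 387 (adjusted p = 0.0755, 0.071, 0.059, 0.0912, 0.102 and 0.0821) and with that line-number term (0.127). Exons of Adam17 overlap those of Iah1 on the other strand, which was at 35.7 and 37.9 CPM in the 2 groups.

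Adam8, a protease best known from leukocytes and also made by carcinoma cells, was at 30.2, 31, 22.4, 29.9 and 33.5 CPM in the shCtrl and at 14.8, 11.1 and 22.4 CPM in the shTrp53 metastatic lines. The highest shTrp53 line, 387, reached the level of the lowest shCtrl line, 378. Adam8 fell, with a log2 fold change of -0.86 (SE 0.23, adjusted p = 0.0241). The call was lost without line 377, 384 or 386 (adjusted p = 0.057, 0.0913 and 0.0883). Adam10, the main protease of Notch processing, was at 40.6 ± 2.2 and 44.3 ± 4.17 CPM (log2 fold change 0.13, SE 0.12, adjusted p = 0.466). Adam12, which can shed EGF receptor ligands, was at 21.9 ± 7.75 and 22.1 ± 9.57 CPM, and Adam15, found at cell junctions, at 9.20 ± 3.55 and 6.61 ± 0.499 CPM (adjusted p = 0.980 and 0.247; SD, n = 5 and 3).

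Of the ADAMTS genes 0 of 4 tested were called by the edgeR test. Adamts1, which cuts the proteoglycans aggrecan and versican, was at 21.9 ± 5.37 and 15.5 ± 7.48 CPM (SD, n = 5 and 3; adjusted p = 0.291). Adamts5, another aggrecanase, was low, at 0.83 ± 0.20 and 0.47 ± 0.19 CPM (adjusted p = 0.206). All 3 ADAMTSL genes had a log2 fold change below 0 and 2 were called.

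Adamtsl4, whose product binds fibrillin microfibrils, stood at 6.30, 4.43, 9.82, 9.68 and 4.59 CPM in the shCtrl and at 2.51, 1.56 and 3.50 CPM in the shTrp53 metastatic lines, with no overlap. Adamtsl4 fell, with a log2 fold change of -1.45 (SE 0.38, adjusted p = 0.0230). The call was lost without line 378, 384 or 386 (adjusted p = 0.053, 0.0761 and 0.0857) and with the line-number term (0.0656). Adamtsl3, a secreted glycoprotein of the matrix, stood at 5.25, 12.7, 16.1, 21.1 and 29.8 CPM and at 3.73, 2.41 and 7.83 CPM, so shTrp53 line 387 lay above shCtrl line 376. Adamtsl3 fell, with a log2 fold change of -1.85 (SE 0.54, adjusted p = 0.0366). The call was lost without line 377, 378, 382, 384 or 386 (adjusted p = 0.0577, 0.0625, 0.0585, 0.117 and 0.118), and without 387 the log2 fold change was -2.46. Adamtsl5, which also binds fibrillin, was the most abundant of the 3 per kb of transcript (17.4 CPM per kb on average over 10 lines). Adamtsl5 stood at 34.8 ± 6.6 and 28.5 ± 0.612 CPM (SD, n = 5 and 3), a log2 fold change of -0.28 (adjusted p = 0.244), and with the line-number term it was called lower (-0.55, adjusted p = 0.0473).

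**Figure D4:**
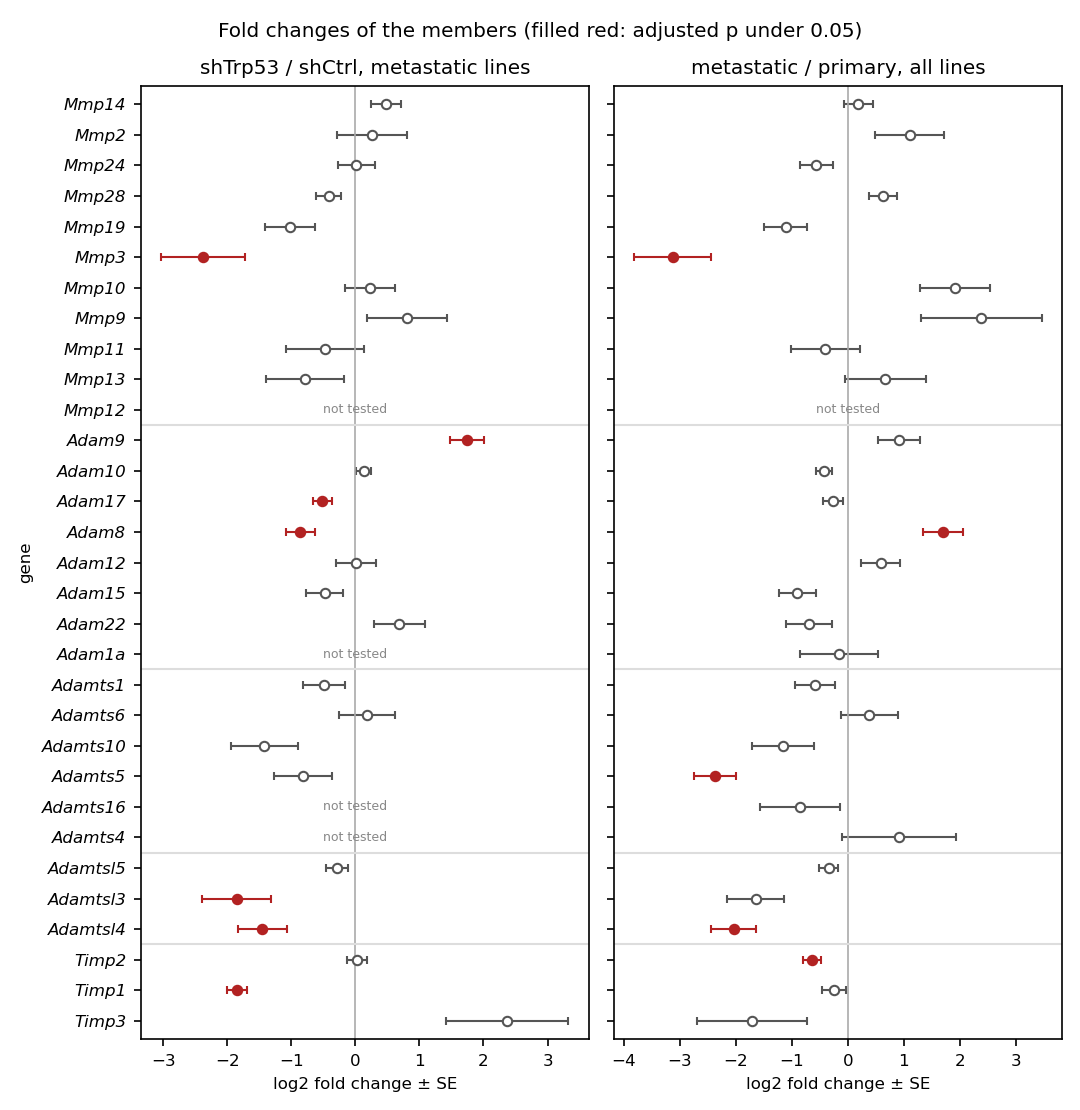
Log2 fold change with its SE (edgeR) of each member between shTrp53 and shCtrl metastatic lines (left) and between metastatic and primary lines (right), filled red where the adjusted p was under 0.05. On the left 1 member is called higher (Adam9) and 6 lower; on the right Adam8 is called higher and Mmp3, Adamts5, Adamtsl4 and Timp2 lower.

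Proteases were next set against inhibitors in each line, with CPM divided by transcript length (CPM per kb) so that genes could be added. These sums of RNA levels are described without a test. Whether the TIMPs counted act on the proteases counted was not tested. TIMP genes together stood at 164, 148, 135, 136 and 168 CPM per kb in shCtrl metastatic lines 376, 377, 378, 382 and 383 and at 60.9, 80.9 and 72.7 CPM per kb in shTrp53 lines 384, 386 and 387. ADAM genes together stood at 63.7, 74.7, 79.8, 86.3 and 89.9 CPM per kb and at 143, 249 and 132 CPM per kb. The TIMP sums of the 2 groups did not overlap, nor did the ADAM sums, which went the other way. MMP genes together reached 29.4 to 52.0 CPM per kb in the shCtrl and 46.2 to 50.7 CPM per kb in the shTrp53 lines, within the shCtrl range.

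The log2 ratio of the MMP sum to the TIMP sum was -1.93 ± 0.43 (SD, n = 5) in the shCtrl and -0.53 ± 0.23 (SD, n = 3) in the shTrp53 metastatic lines. With ADAM and ADAMTS genes added to the MMPs, the log2 ratio to the TIMP sum was -0.27 ± 0.32 and 1.65 ± 0.29. The shCtrl lines ranged from -0.74 to 0.10 in the latter and the shTrp53 lines from 1.33 to 1.90. The shCtrl primary line, at -0.43, lay within that shCtrl range. At 0.109 the shTrp53 primary line lay just above it (highest 0.099) and below the shTrp53 metastatic lines. For MMP over TIMP the primary lines were at -1.873 (shCtrl) and -1.585 (shTrp53), both within the shCtrl metastatic range. The TIMP sum was 151.5 CPM per kb in the shCtrl and 117.8 CPM per kb in the shTrp53 primary line. A few genes set these sums: Timp1 made up 73.6 ± 2.60% of the TIMP sum in the shCtrl and 42.8 ± 5.44% in the shTrp53 metastatic lines, Adam9 55.2 ± 6.6% and 82.8 ± 5.64% of the ADAM sum, and Mmp14 64.1 ± 5.75% and 73.2 ± 9% of the MMP sum (SD, n = 5 and 3). The log2 ratio of Mmp14 to Timp2, which act together on pro-MMP2, was -0.65 ± 0.46 and -0.13 ± 0.17. Without division by length the group differences were smaller, 0.79 in place of 1.40 for MMP over TIMP and 1.31 in place of 1.92 for all proteases over TIMP. The share of Timp1 also depends on this division. In CPM, mean Timp2 was above mean Timp1 in the shCtrl (145.7 against 97.65) and the shTrp53 (147.7 against 26.95) metastatic lines.

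**Figure D5:**
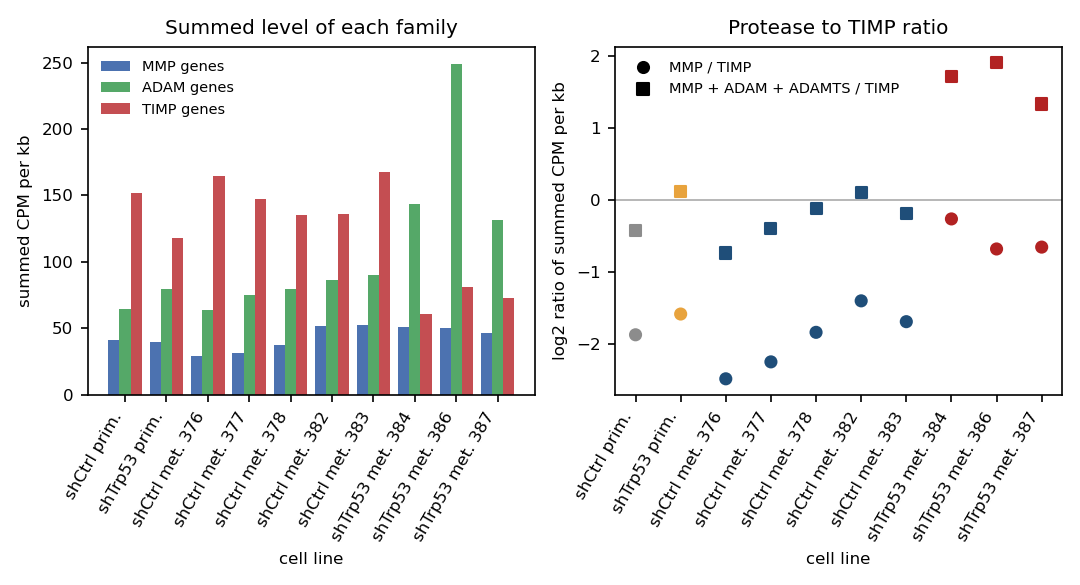
Left, summed CPM per kb (bars) of the MMP, ADAM and TIMP genes in each of the 10 lines; right, log2 ratio in each line of the MMP sum (circles) and of the MMP, ADAM and ADAMTS sum (squares) to the TIMP sum, coloured by group. The 3 shTrp53 metastatic lines have TIMP sums of 60.9 to 80.9 and are the lines with squares above 1.3.

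The next comparison set the 8 metastatic against the 2 primary lines, with the hairpin as a covariate. Adam8 was higher in the metastatic lines, and Mmp3, Adamts5, Adamtsl4 and Timp2 were lower. These 5 of 30 tested members compare with 14.8% of all 12603 genes tested, of which 7.14% were higher and 7.65% lower. The members' median log2 fold change was -0.37, against -0.03 over all genes tested. With 1 primary line of each hairpin, the primary side of the comparison rests on 2 libraries.

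Adam8 was at 5.24 and 8.00 CPM in the shCtrl and shTrp53 primary lines and at 11.1 to 33.5 CPM in the 8 metastatic lines, with no overlap. Its log2 fold change was 1.70 (SE 0.36, adjusted p = 0.0140), and 1.01 without the shCtrl primary line (adjusted p = 0.102). Without the shTrp53 primary line it was 2.49. Adamts5 was at 4.08 and 2.67 CPM in the primary lines and at 0.26 to 1.12 CPM in the metastatic lines, a log2 fold change of -2.37 (SE 0.37, adjusted p = 0.00360; 0.0689 without the shTrp53 primary line). Timp2 was at 215 and 244 CPM in the primary lines and at 124 to 186 CPM in the metastatic lines. All 8 metastatic lines thus held less Timp2 RNA than either primary line. Its log2 fold change was -0.64 (SE 0.16, adjusted p = 0.0232), and the call was lost without the shCtrl primary line, the shTrp53 primary line or line 387 (adjusted p = 0.066, 0.255 and 0.0501).

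Mmp3 was at 5.57 and 8.40 CPM in the primary lines and at 0.20 to 3.79 CPM in the metastatic lines. The log2 fold change of Mmp3 was -3.13 (SE 0.68, adjusted p = 0.0146), -4.49 without the shCtrl primary line and -1.50 without the shTrp53 primary line (adjusted p = 0.337). Adamtsl4 was at 16.1 and 17.5 CPM in the primary lines and at 1.56 to 9.82 CPM in the metastatic lines. The log2 fold change of Adamtsl4 was -2.04 (SE 0.40, adjusted p = 0.0102), -2.78 without the shCtrl primary line and -1.20 without the shTrp53 primary line (adjusted p = 0.251). Mmp3 and Adamtsl4 were thus lower in both comparisons, which share the 8 metastatic lines, while Adam8 was higher at the metastatic site and, among metastatic lines, lower with shTrp53. Timp1 and Adam9 were not called between sites (adjusted p = 0.441 and 0.111). With the line-number term (376 to 378), 15 members were called between sites, 6 higher and 9 lower, Adam9, Mmp14 and Mmp2 among those higher. This fit called 4307 of all 12603 genes tested, against 1864 in the fit without the term.

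Whether the hairpin difference was the same at both sites was tested as an interaction. By the edgeR test 0 of 31 members and 0 of 12754 genes (0%) passed, with 6 members and 1168 genes at an unadjusted p under 0.05. DESeq2 called 52 genes, 0 of them members. The largest gaps among the named members by unadjusted p were those of Timp1 (interaction -1.004, unadjusted p = 0.0102, adjusted p = 0.471) and Adam8 (-1.47, unadjusted p = 0.0165, adjusted p = 0.505). The primary lines had 5.24 CPM (shCtrl) and 8.00 CPM (shTrp53) of Adam8, a log2 ratio of 0.61 (counting interval 0.17 to 1.05), and lower with shTrp53 in the metastatic lines. With 1 primary line of each kind these differences were not shown to hold between sites.

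Related genes outside the families were read in the same metastatic comparison, beside the 21.7% called of all genes. Of 16 tested activators, binders and inhibitors of MMPs outside the TIMP family, 5 rose and 2 fell (median log2 fold change 0.11). St14, which encodes the membrane serine protease matriptase, rose from 8.49 ± 1.64 to 23.2 ± 2.81 CPM (1.45 on the log2 scale, SE 0.20, adjusted p = 0.00167). Its inhibitor Spint1 rose from 5.54 ± 1.51 to 24.1 ± 2.60 CPM (2.13, SE 0.22, adjusted p = 0.000518) and Prss8, the protease prostasin that acts with matriptase, from 5.37 ± 1.82 to 17.6 ± 3.59 CPM (1.72, SE 0.29, adjusted p = 0.00435). Serpinb2, an inhibitor of plasminogen activators, rose from 78.0 ± 36.7 to 345 ± 175 CPM (2.15, SE 0.39, adjusted p = 0.00655; SD, n = 5 and 3). In the primary pair these 4 genes were also higher with shTrp53, at 11.9 against 2.66 CPM for St14, 6.38 against 1.75 CPM for Spint1, 6.46 against 2.33 CPM for Prss8 and 64.9 against 25.6 CPM for Serpinb2. These 4 kept their calls whichever line was removed. Serpinb2 lost its call with the line-number term (adjusted p = 0.0684).

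Of 10 partners of ADAM10 and ADAM17, 2 rose and 0 fell by the edgeR test (median log2 fold change 0.05). Pcsk7, a proprotein convertase, rose from 7.58 to 16.0 CPM (adjusted p = 0.0130; 0.0565 without line 386) and Tspan5, a tetraspanin that binds ADAM10, from 21.7 to 33 CPM (adjusted p = 0.0332). Tspan5 lost its call without line 377, 382, 384 or 386 (adjusted p = 0.0745, 0.0593, 0.0651 and 0.147). Of 32 tested substrates of these proteases, 2 rose and 3 fell (median 0.18). Csf1, a macrophage growth factor, fell by 2.78 on the log2 scale (adjusted p = 0.000565). Cdh1, or E-cadherin, had a log2 fold change of 1.44 (adjusted p = 0.000661). App, the amyloid precursor protein, rose from 205 to 329 CPM (adjusted p = 0.0160; 0.0667 without line 386). Tnf, the substrate for which ADAM17 was first named, was at 0.67 to 3.78 CPM in the 5 shCtrl metastatic lines and had 0 counts in the 3 shTrp53 metastatic and both primary lines (adjusted p = 0.00382), and 0 counts allow up to 0.17 to 0.24 CPM per line (3 counts).

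Of 13 tested matrix proteins that these proteases cut, 2 rose and 2 fell (median log2 fold change -0.15). The basement membrane collagen genes Col4a1 and Col4a2 rose from 4.97 to 16.6 CPM (adjusted p = 0.0137; 0.0682 without line 386) and from 4.46 to 11.4 CPM (adjusted p = 0.0308). Col4a2 lost its call without line 377, 378, 382, 386 or 387 (adjusted p = 0.0676, 0.0658, 0.0529, 0.15 and 0.0512). Hspg2, or perlecan, fell from 4.81 to 1.71 CPM (adjusted p = 0.0223; 0.0508, 0.0883 and 0.0694 without line 377, 384 or 386). Of 7 other metallopeptidases, Mme, or neprilysin, rose from 0.24 to 2.12 CPM (adjusted p = 0.00906). These levels of Mme rest on only 0, 4, 3, 6 and 2 counts in the shCtrl lines and 20, 23 and 62 counts in the shTrp53 lines, in order of number.

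Of 15 tested AP-1, ETS and RUNX factors, which bind promoters of MMP genes, 0 rose and 2 fell by the edgeR test (median -0.19). Jun, a subunit of AP-1, fell from 79.1 to 42.9 CPM (adjusted p = 0.0330) and lost its call without line 377, 382, 386 or 387 (adjusted p = 0.0727, 0.0541, 0.0868 and 0.11). Elk3, an ETS factor, fell from 42.5 to 26.5 CPM (adjusted p = 0.0451) and lost its call without line 376, 377, 378, 384 or 386 (adjusted p = 0.0748, 0.0991, 0.0748, 0.175 and 0.129). With the line-number term Pcsk7, Tspan5, App, Col4a1, Hspg2, Mme and Elk3 also lost their calls (adjusted p between 0.0542, Col4a1, and 0.288, Elk3).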

How the data were processed

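RNA from 10 cell lines was turned into cDNA with SMART-Seq v4 and sheared before library preparation, per the labels' protocols. The authors deposited whole-number counts per gene, without normalization. STAR 2.5, Cufflinks 2.2.1, DESeq2 and the build mm9 are named, per the submitters' processing notes. Their roles, the gene annotation and strandedness were not given in the sources used here. Of 12824 rows, 18 held a bare number in place of a gene name (0.332 to 0.491% of counts) and were left out.

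Groups came from the sample titles. Counts were tested over all genes in R 4.3.3 by edgeR 4.0.16 (TMM scaling, filterByExpr, glmQLFit with robust dispersion, glmQLFTest, Benjamini-Hochberg adjusted p under 0.05). CPM used TMM scaling over 10 libraries; CPM per kb used the longest GENCODE protein-coding transcript. Library sizes of 11057049 to 18431216 counts limit low genes, and counting intervals and floors cover counting error only. Fits with DESeq2 1.42.0, limma 3.58.1 (voom), other scalings, filters and line sets were alternatives. Scripts were tested on simulated data.

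Members and lists were chosen with earlier results of these data known. Named members are every TIMP, every called member and every other member with a mean of at least 5 CPM; from each list the text names up to 4 called genes with the smallest adjusted p. One gene this rule took is not reported here. Mmp9, Mmp10, Mmp12, Mmp13, Mmp19, Adamts6, Adamts10, Adamts16 and the neighbours of Adam9 fall outside this rule and were chosen after their values were seen. Coordinates are given for printed promoters only, since the reference build differs from the authors'.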

Additional observations from a re-analysis of the deposited data

Results flagged for a closer look

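In the 5 shCtrl metastatic lines, 19 named members and 3 log2 ratios of summed levels were checked for a line far from the others, and 2 of these 22 checks were met, where chance meets about 1 in 20. Mmp28 was lowest in line 376, at 7.21 CPM against 9.26 to 9.99 CPM in the others, a gap of 0.738 of the whole range. Adamts1 was highest in line 382, at 31.1 CPM against 17.1 to 21.1 CPM in the others, a gap of 0.713 of the range.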

How the results depend on the processing

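Timp1 and Adam9 passed in the hairpin comparison of the metastatic lines under all 18 alternatives. The count of called members, 7 (1 higher, 6 lower), was 2 to 9 when 1 line was left out (1 to 2 higher, 1 to 7 lower), 2 with all 10 lines or against a 1.5-fold change (1 lower in each), and limma voom called 2 higher. The count over all genes, 2634, was 981 with the term for line numbers 376 to 378 and 330 against a 1.5-fold change. It was 1154 to 3239 when 1 line was left out, 1770 with all 10 lines and 3588 with limma voom. Between sites 5 members were called (1 higher, 4 lower). DESeq2 called 12 (5 higher, 7 lower), the term for line numbers 15 (6 and 9), and the shCtrl lines alone 1, with 0 lower. Leaving out 1 line gave 1 to 8 (1 to 2 higher, 0 to 7 lower). Over all genes the count between sites was 1864, and 2816 with DESeq2 and 4307 with the term for line numbers. It was 1036 to 2687 without 1 metastatic line. Without the shTrp53 primary line it fell below this range, in a fit that rests on 1 primary line. The cause was not tested.

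Some log2 fold changes that were not called changed sign. Between hairpins these were Adam12 (-0.037, limma voom; -0.408, line-number term; -0.081, all 10 lines; -0.371 to 0.252 without 1 line), Timp2 (-0.039, limma voom; -0.169 to 0.133 without 1 line), Mmp2 (-0.486, line-number term; -0.118 to 0.719 without 1 line) and Mmp24 (-0.208, line-number term; -0.049, all 10 lines; -0.329 to 0.244 without 1 line). Between sites they were Mmp14 (-0.087; -0.080 to 0.538 without 1 line), Adam17 (0.042; -0.582 to 0.049) and Timp1 (0.266; -0.737 to 0.274), each first in shCtrl lines only, and Timp3 (-1.71 in the reported fit; 0.003 in shTrp53 lines only; -2.724 to 0.004 without 1 line). Without division by length, the group difference of log2 MMP over TIMP was 0.789 and that of log2 protease over TIMP 1.311.

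No paired analysis was possible because the groups share no line numbers. The interaction cannot be estimated without either primary line. Depth limits the 12 members under 5 CPM outside the named ones, of which 4 were too low to test between hairpins.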

Other observations

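Some low members, chosen after their values were seen, split the lines by number or by primary line. Adamts10, a secreted protease of the fibrillin matrix, was at 5.39, 4.69 and 4.17 CPM in shCtrl metastatic lines 376, 377 and 378 and at 4.01 and 4.93 CPM in the primary lines. In shCtrl lines 382 and 383 Adamts10 was at 1.26 and 1.41 CPM, in the range of shTrp53 lines 384, 386 and 387 (1.15, 1.11 and 1.5 CPM). Its hairpin difference had an adjusted p of 0.0724.

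Mmp9, the gelatinase B gene, had 12 counts (0.78 CPM) in the shCtrl primary line and 0 counts in the shTrp53 primary line, which allow up to 0.24 CPM. It reached 0.56 to 2.98 CPM in the shCtrl and 0.65 to 6.11 CPM in the shTrp53 metastatic lines. Mmp10, or stromelysin 2, was at 0.19 CPM in the shCtrl and 1.29 CPM in the shTrp53 primary line and at 1.30 to 3.72 CPM in the metastatic lines, above both primary lines in all 8 (log2 fold change between sites 1.92, SE 0.63, adjusted p = 0.0590). Mmp12, or macrophage elastase, was highest in the shCtrl primary line, at 1.62 CPM against 0.26 to 0.67 CPM in the other 9 lines.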
